A study of Mus musculus with 4 samples.

Results

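Gene expression was compared between 1 culture of naive mouse CD4+ T cells activated for 24 h with 1.5 µM DMAT and 1 control culture without it. DMAT, a brominated benzimidazole, is an ATP-competitive inhibitor of the protein kinase CK2. The comparison covers every feature with at least 20 total exon reads over the 2 libraries, which was 9649 of the 37583 features in the tables, and these hold 99.6% of the exon reads. At the edge of the rule, 58 genes had exactly 20 reads and 65 features had 19, while 23246 features had 0 in both libraries. All cells were FACS-purified from the spleens of C57BL/6 mice and stimulated on plates coated with antibodies to CD3 and CD28. The medium held the cytokines IL-6, IL-1β and IL-23 together with neutralising antibodies to IFN-γ and IL-4, a culture that the labels call aTh17. A second pair of libraries, with 1 µM CX4945 and without it, also at 24 h, was used to set values side by side. CX4945 is another CK2 inhibitor of a different chemical class. The control libraries are named only as cultures without the inhibitor, so whether they received a vehicle is not given in the sources used here, nor is the number of mice behind a library.

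Th17 cells are helper T cells that secrete IL-17A, IL-17F and IL-22 and act in defence at mucosal surfaces and in autoimmune inflammation. IL-6 starts the programme through STAT3, and IL-1 and IL-23, through Il1r1 and Il23r, sustain it. CK2 is a constitutively active serine/threonine kinase made of catalytic and regulatory subunits, with many substrates, among them components of the STAT, NF-kB and AKT pathways. The question the comparison addresses is which transcripts differ when CK2 is inhibited while these cells are being polarised.

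The control library held 2772525 exon reads and the DMAT library 2523446, against 2285545 and 2056635 in the CX4945 pair. Each arm had 1 library, so no difference below has a replicate check, and no p-value is given. Ratios carry exact 95% counting intervals, which cover counting error only and not the spread between cultures. Copies of 1 molecule were not marked and could be counted more than once, so the intervals may be too narrow even for counting error. A gene was counted as higher or lower when its log2 ratio of scaled CPM (counts scaled to equal library totals) passed 2-fold, or 1.5-fold where stated. That log2 ratio adds a prior count, which draws it towards 0, so a gene can have a printed ratio just past 2-fold and not be counted. T cell transcripts were present at similar levels in all 4 libraries: Cd3e, a chain of the T cell receptor complex, was at 129, 141, 143 and 170 CPM (control, DMAT, second control, CX4945) and Cd4 at 252, 257, 278 and 268. Of the defining markers of other cells, Cd79b and Ms4a1 (B cells), Lyz2 and Itgam (myeloid cells), Ncr1 and Klrb1c (NK cells) and Hba-a1 and Pf4 (erythroid cells, platelets) had 0 reads in every library. Of the CD8 T cell markers, Cd8a had 1, 0, 1 and 2 reads and Cd8b1 8, 6, 8 and 8.

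In all, 105 genes were at least 2-fold higher with DMAT (1.09% of those compared) and 123 at least 2-fold lower (1.27%). At 1.5-fold the counts were 440 higher (4.56%) and 467 lower (4.84%). The 2 control libraries differed from each other by 2-fold at 216 of 9564 genes (2.26%), against 228 of 9649 (2.36%) with DMAT, so the count alone does not set the DMAT library apart. Both comparisons use the control for DMAT. The named genes and the size of their ratios are therefore the content of what follows, and most are given with their levels in the second pair too. In bulk RNA, fewer cells of a type and less RNA per cell cannot be told apart.

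**Figure D1:**
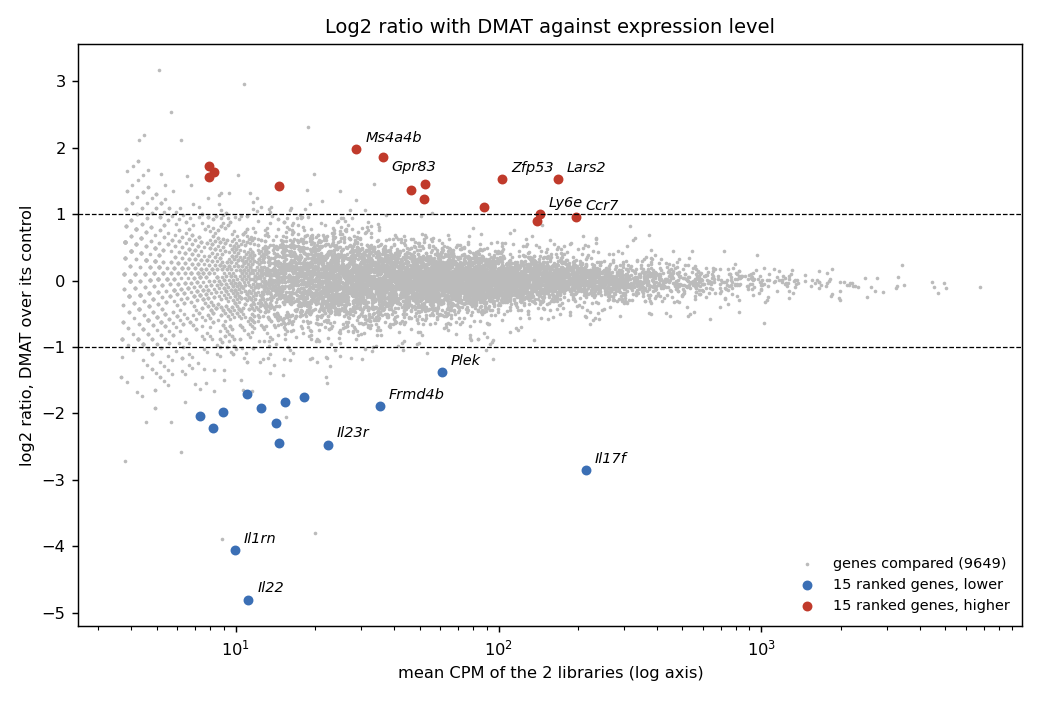
Log2 ratio of DMAT over its control (vertical axis) against the mean CPM of the 2 libraries (horizontal, log axis) for 9649 genes, with the 15 lower and 15 higher genes whose counting interval lies farthest from 1 in colour and dashed lines at 2-fold. Il17f lies well below the cloud at its level, and Il22, with 0 reads with DMAT, is drawn at the value that a prior count gives and not at a bound.

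The genes lower with DMAT included cytokine and receptor genes of the Th17 fate. On a list of Th17 cytokines, receptors and some other genes, 14 were compared. Of these, 8 were at least 2-fold lower and 0 higher, against 1.27% lower among all genes. The median log2 ratio of the 14 was -1.18 against 0.01 over all genes. The list was drawn up with results of these data known, so its count describes the list and is not independent evidence of its direction. The 8 genes were Il22, Timp1, Il17f, Il23r, Il17a, Ccr6, Lgals3 and Il1r1. Timp1, a metalloproteinase inhibitor, and Lgals3, a galectin, are not cytokines or receptors. Lgals3 had 19 control reads and 6 with DMAT, and was higher with CX4945 (log2 ratio 1.16). The median is the same with Il22 at its bound.

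Il17f, the most abundant of these cytokine transcripts, was at 377 CPM in the control and 51.4 with DMAT, and at 263 and 65.8 CPM in the CX4945 pair. It was thus low in both inhibitor libraries and high in both controls. The ratio with DMAT was 0.136 (0.113 to 0.164), and it was the only gene with 1000 or more reads that differed 2-fold. Il17a, its neighbour on chromosome 1, had 22 control reads and 3 with DMAT, a ratio of 0.149 (0.0285 to 0.495), and 22 and 1 reads in the CX4945 pair. Per kilobase of exon, the control held 322 CPM of Il17f and 6.77 of Il17a, so at 24 h nearly all of the IL-17 transcripts were Il17f. Of the 3 other genes compared within 400 kb of Il17f, none was 2-fold apart: the replication gene Mcm3 had a log2 ratio of 0.00, Paqr8 -0.05 and Tram2 0.54.

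Il22 had 62 control reads, 0 with DMAT, 78 in the second control and 22 with CX4945. With the floor of 3 counts in place of the 0, it was 19-fold lower with DMAT. The counting interval of its ratio reached up to 0.0669, so by that interval Il22 was at least 14.96-fold lower. It was the only one of the 9649 genes with a count of 0 in either library, and 51.6% of its reads were unique. Il23r, the receptor subunit for the IL-23 in the medium, was at 38.5, 6.28, 35.9 and 14.7 CPM (control, DMAT, second control, CX4945). The controls lay close together and DMAT lowest, 6.13-fold under its control (3.61 to 11.1). Ccr6, the homing receptor of Th17 cells, had 19 control reads and 5 with DMAT, but also 5 in the second control, so the 2 controls lay as far apart as the pair.

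Not every cytokine of these cells was lower. Il21, which encodes a cytokine that amplifies the Th17 programme, was at 306, 285, 277 and 277 CPM in the 4 libraries, a ratio of 0.931 (0.842 to 1.03) with DMAT. Il2, the T cell growth factor, was at 621 and 427 CPM in the DMAT pair and at 477 and 495 in the CX4945 pair. Its ratio of 0.688 (0.637 to 0.743) did not reach 1.5-fold, and the control for DMAT was the highest of the 4 libraries.

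The 250 bases before the annotated starts of Il17a, Il17f and Il23r are shown because these genes were low together and because AGGTCA is the half-site that many nuclear receptors bind. TTCNNNGAA is the motif of STAT factors and TGANTCA a loose form of that of AP-1, with N any base. The sequences are RefSeq's for build GRCm38.p6 and lie at chr1:20730655-20730904 on the plus strand for Il17a, at chr1:20784271-20784520 on the minus strand for Il17f and at chr6:67491856-67492105 on the minus strand for Il23r. Capitals mark AGGTCA on either strand and the loose AP-1 motif TGANTCA.
Il17a: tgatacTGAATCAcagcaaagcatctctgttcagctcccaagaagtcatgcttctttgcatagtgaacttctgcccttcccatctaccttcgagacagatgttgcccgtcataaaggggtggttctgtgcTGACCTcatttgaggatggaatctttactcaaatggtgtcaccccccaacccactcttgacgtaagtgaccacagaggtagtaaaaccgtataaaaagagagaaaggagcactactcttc
Il17f: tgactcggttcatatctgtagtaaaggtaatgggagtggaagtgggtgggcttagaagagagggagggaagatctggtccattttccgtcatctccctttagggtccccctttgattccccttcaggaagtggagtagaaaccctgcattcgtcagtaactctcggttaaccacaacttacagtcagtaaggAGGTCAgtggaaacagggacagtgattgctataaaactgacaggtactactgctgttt
Il23r: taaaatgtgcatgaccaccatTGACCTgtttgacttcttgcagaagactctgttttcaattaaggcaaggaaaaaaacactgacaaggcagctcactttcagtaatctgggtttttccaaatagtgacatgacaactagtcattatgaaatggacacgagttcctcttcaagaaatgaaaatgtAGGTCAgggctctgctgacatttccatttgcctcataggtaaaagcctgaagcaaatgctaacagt
The half-site AGGTCA lies 58 bases before the start of Il17f and at 120 bases in Il17a, and in Il23r at 66 and 229 bases. TGANTCA occurred once, in Il17a at 244 bases with A as its middle base, and the STAT motif TTCNNNGAA in none of the 3 windows. Of all 32851 promoters in the table, 14% held AGGTCA, 6.75% TGANTCA and 7.02% TTCNNNGAA within the same 250 bases. Among the 8750 promoters of the genes compared, from which the following sets are drawn, the shares were 10.3%, 3.79% and 5.89% in the same order. They were 14.3%, 10.9% and 6.72% in the 119 promoters found for 89 of the 123 genes 2-fold lower, and 12.7%, 7.59% and 5.06% in the 79 found for 66 of the 105 genes 2-fold higher. A match is a description of these letters and not a binding site.

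The transcription factors that drive the fate were closer to their control levels than the cytokines. Of 22 such genes, 0 were 2-fold apart, 2 were 1.5-fold lower, against 4.84% of all genes, and 0 higher. Their median log2 ratio was 0.07. Nfkbiz, which encodes the nuclear IκB protein IκBζ, was at 79.9, 50.3, 90.2 and 73.2 CPM. Stat3, the factor downstream of IL-6 and IL-23, was at 314, 259, 292 and 298 CPM, Batf at 224, 186, 224 and 181 and Irf4 at 953, 1091, 773 and 776. Satb1, a chromatin organiser of T cells, was at 610, 830, 749 and 722 CPM. Ahr, a ligand-activated factor that promotes Il22, was at 19.1, 27.9, 9.19 and 10.8 CPM, so the controls differed by more than the DMAT pair. Cyp1a1, the classical target of Ahr, had 17, 29, 13 and 30 reads.

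Genes of the IL-1 and IL-18 receptor family, of which Il1r1 is counted in the Th17 list too, were also among the lower ones. Of 12 genes compared, 4 were 2-fold lower (Il1rn, Il18rap, Il1r1 and Il1rap, the last with 20 and 8 reads and an interval that held 1), 6 were 1.5-fold lower and 0 higher, against 1.27% of all genes at 2-fold and 4.84% at 1.5-fold lower. Il1r1, the signalling receptor for the IL-1β in the medium, was at 73.1, 33.8, 62.6 and 27.5 CPM, so that both inhibitor libraries lay below both controls, with a ratio of 0.462 (0.355 to 0.597) for DMAT. Il1rn, the secreted antagonist of that receptor, had 54 control reads and 1 with DMAT, and 21 and 2 in the CX4945 pair. Il18rap, a subunit of the IL-18 receptor on the same stretch of chromosome 1 as Il1r1, had 34, 6, 26 and 10 reads. Irak2, an adaptor kinase of IL-1 signalling, was at 53.7 and 33.8 CPM with DMAT and at 64.3 and 66.3 with CX4945.

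**Figure D2:**
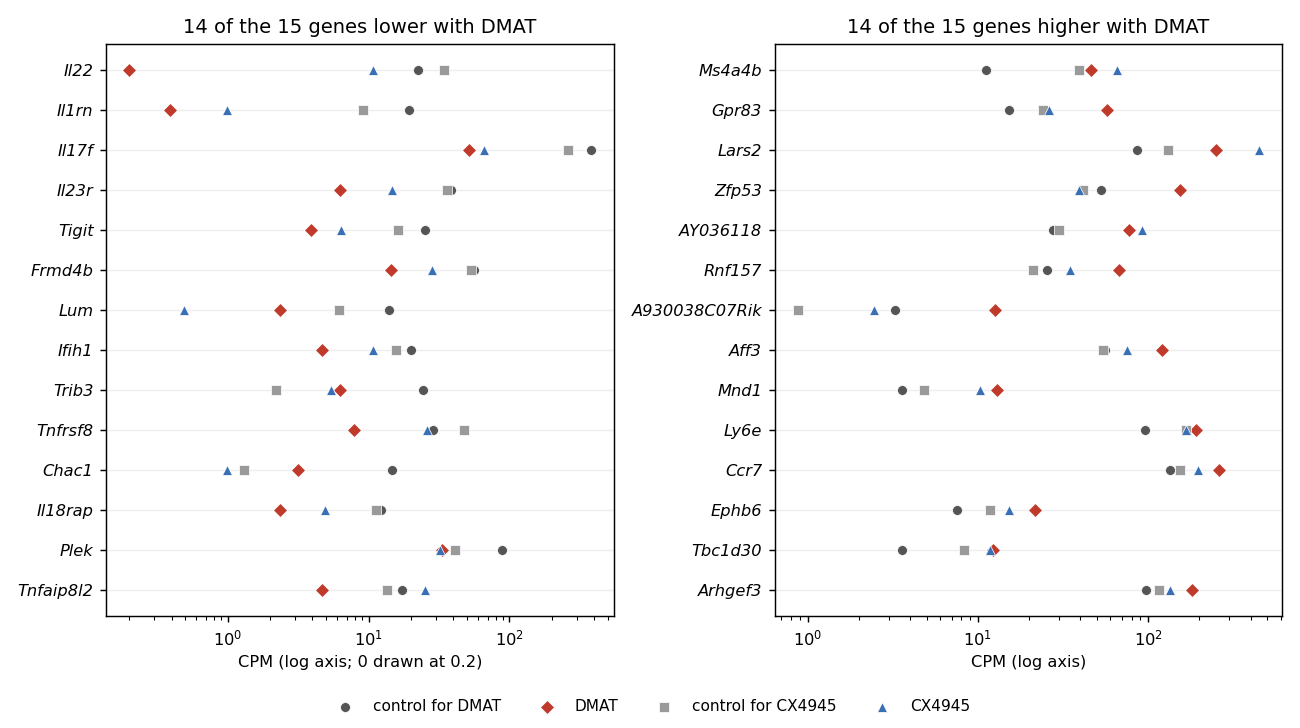
CPM (log axis) of genes from the 15 lower and 15 higher ranked by the counting interval, 1 point per library (the 2 inhibitor libraries and the control of each), with 0 drawn at 0.2. DMAT lies below both controls for 13 of the 15 lower genes, Trib3 and Chac1 being the exceptions, and above both for 14 of the 15 higher ones, and the plot shows 14 genes of each 15.

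These 30 genes were taken by a rule of size, as those with at least 40 reads, at least 50% of them unique, whose interval bound nearest to 1 lay farthest from it. Among the lower 15, the DMAT library was below both control libraries for 13, a position that 33.5% of all 9649 genes have. Being below the first control is fixed by how the genes were chosen, and of the 4743 genes below their own control 68.2% were below both. Among the higher 15 it was above both for 14, which holds for 35.1% of all genes and for 69.1% of the 4906 above their own control. The 2 lower genes that failed this were Trib3 and Chac1, targets of the stress factor ATF4. Trib3, a pseudokinase, had 68 reads in the control for DMAT and 16 with DMAT but 5 in the second control. Chac1, a glutathione-degrading enzyme, had 41, 8 and 3. For both, the control for DMAT was the high library.

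Kinds of read were then compared for the same genes. Unique exon reads and exon-exon (junction) reads are parts of the exon reads that ranked the genes, so their direction was largely fixed by that choice and they are given as a description. Intron reads were not used in the ranking. Of the 9 lower genes with at least 10 intron reads, 8 were lower in them, 7 with an interval that left out 1. Il17f had 102 and 9 junction reads (control, then DMAT) and 67 and 8 intron reads, a ratio of 0.130 (0.0540 to 0.272) in the introns against 0.136 in exons. Il23r had 72 and 11 intron reads and Plek 24 and 8. The exception was Ifih1, a sensor of viral RNA, with 56 and 12 exon reads but 6 intron reads in each library. The exon and intron counts of these lower genes were thus low together, with Ifih1 the exception at a depth of 12 intron reads. Of the 12 higher genes with at least 10 intron reads, 12 were higher in them, but only 5 had an interval that left out 1.

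**Figure D3:**
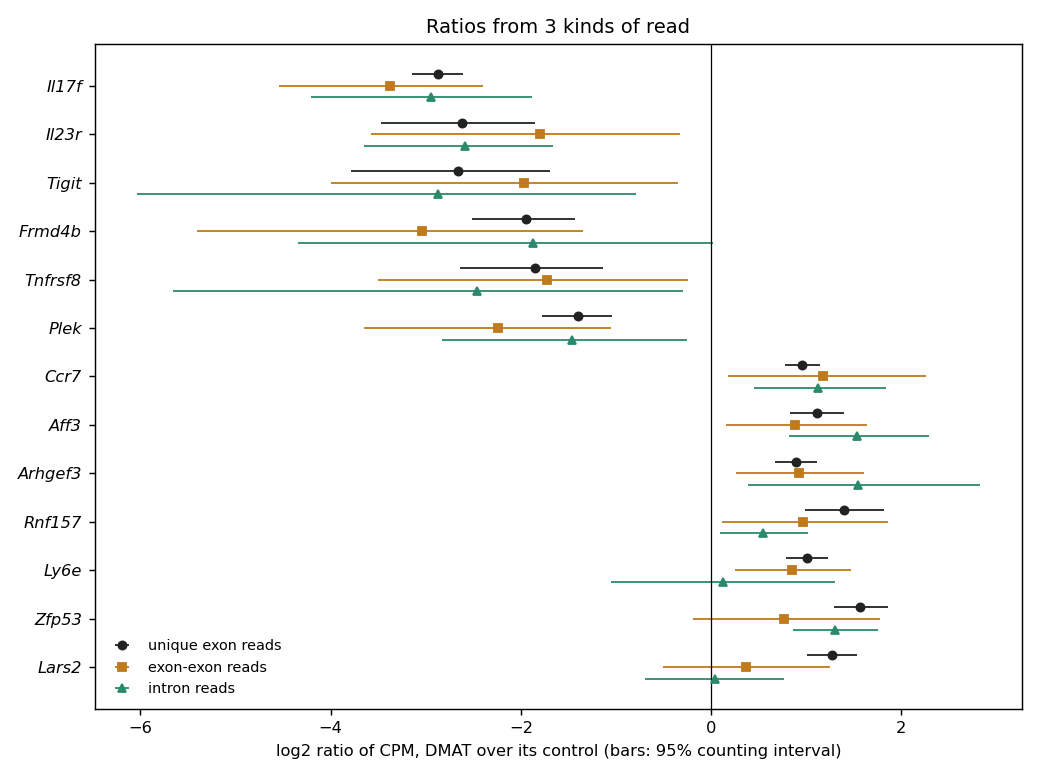
Log2 ratio of DMAT over its control from unique exon reads, exon-exon reads and intron reads for 13 of the 30 ranked genes, chosen after their values were seen as those with reads of each kind. Points are ratios of CPM and bars are 95% counting intervals. The points of the 6 lower genes lie below 0 in all 3 kinds, while the junction and intron reads of Lars2 lie near 0 on this scale.

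Th1 genes were also among those lower with DMAT, in cultures where IFN-γ was blocked. Of 11 genes, 6 were 2-fold lower and 0 higher, against 1.27% and 1.09% of all genes, with a median log2 ratio of -1.02. The lists share members: the 6 include Il18rap, also counted in the IL-1 and IL-18 family. Ccl3, Ccl4 and Cxcr3 are counted among the homing genes too. Tbx21, which encodes the Th1 master regulator T-bet, was at 32.8 CPM in the control and 11.4 with DMAT, a ratio of 0.348 (0.221 to 0.533), and at 38.1 and 41.8 in the CX4945 pair. The DMAT library was the lowest of the 4. Stat4, which signals from the IL-12 and IL-23 receptors, was at 58.7, 27.9, 58.7 and 41.3 CPM. Cxcr3, a chemokine receptor of Th1 cells, was at 14.4, 6.68, 16.6 and 8.84 CPM. The chemokine genes Ccl3 and Ccl4 had 24 and 33 reads in the control and 6 and 9 with DMAT, but also 8 and 9 in the second control. Ifng itself had 0 reads in all 4 libraries, so a difference in it was not detectable at this depth. Of 6 Th2 genes, 0 were past 1.5-fold, against 4.56% of all genes higher and 4.84% lower.

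Receptors that steer the migration of T cells lay on both sides. Of 20 chemokine and homing genes, 5 were 2-fold lower, among them Ccl3, Ccl4, Ccr6 and Cxcr3, and 2 higher, among them P2ry10 with 16, 32, 11 and 23 reads. Over all genes the shares were 1.27% lower and 1.09% higher. The lower genes named here are also counted in the Th17 or Th1 list. Ccr7, which guides naive T cells into lymph nodes, was at 134, 261, 153 and 195 CPM, 1.94-fold higher with DMAT (1.71 to 2.21). Its DMAT level was the highest of the 4 libraries, and both inhibitor libraries lay above both controls.

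Receptors of activated T cells lay on both sides. Tigit, an inhibitory receptor, was at 25.2, 3.93, 16.2 and 6.39 CPM, 6.42-fold lower with DMAT (3.29 to 14). Both inhibitor libraries were below both controls. Tnfrsf8, which encodes CD30, was at 28.4, 7.85, 47.7 and 26.0 CPM, with a ratio of 0.276 (0.160 to 0.455). Pdcd1lg2, the PD-1 ligand PD-L2, had 34 and 11 reads, and 61 and 59 in the CX4945 pair, and Crtam, an adhesion receptor of activated T cells, had 38 and 11 against 68 and 58. In both genes DMAT was the lowest of the 4 libraries. Cd44 was at 63.7, 36.9, 70.9 and 48.6 CPM (ratio 0.579, 0.446 to 0.748), whereas Cd69, another activation marker, was at 174, 244, 175 and 203. Il2ra, the IL-2 receptor α chain, was at 1153, 969, 1074 and 958 CPM. Cd28 was at 722, 861, 655 and 637 CPM and Icos at 203, 273, 201 and 201, so costimulatory receptors were not low as a group: of 13 costimulatory and inhibitory receptors, 2 were 2-fold lower, Tigit and Pdcd1lg2, and 1 higher, Cd96 with 7 and 15 reads. Among all genes 1.27% were 2-fold lower and 1.09% higher.

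Genes of naive and resting T cells lay mostly above 0 with DMAT. Of 28 genes, 2 were 2-fold higher, Ms4a4b among them, and 7 were 1.5-fold higher, against 1.09% and 4.56% of all genes. By either measure 0 were lower, and 22 lay above 0, where 50.8% of all genes lay. The median log2 ratio was 0.30, and in the same list the second control lay above the control for DMAT by a median of 0.27. Both medians use the control for DMAT, and the part of that library in them was not tested. Ms4a4b, a tetraspan membrane protein of naive T cells, was at 11.2 CPM in the control and 46.3 with DMAT, 4.15-fold higher (2.77 to 6.38), and at 39.0 and 65.3 in the CX4945 pair. The control for DMAT was the library apart, and against the second control the log2 ratio was 0.25 in place of 1.98. Ms4a6b, a related gene on the same stretch of chromosome 19 and read more often, was at 228, 403, 232 and 258 CPM with a ratio of 1.76 (1.60 to 1.95). Here the DMAT library was the highest and the other 3 lay close together. Bach2, a repressor that keeps T cells from effector fates, was at 321, 440, 312 and 307 CPM, a ratio of 1.37 (1.26 to 1.5), and Igfbp4, a binding protein of insulin-like growth factors, at 99.0, 181, 162 and 261.

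Gpr83, an orphan receptor enriched in regulatory T cells, was at 15.1 CPM in the control, 57.3 with DMAT, 24.1 in the second control and 26.0 with CX4945. Of 11 Treg genes, 2 were 2-fold higher and 0 were 2-fold lower, against 1.09% and 1.27% of all genes. The higher ones were Gpr83 and Tnfrsf18, the receptor GITR (36.7 and 75 CPM, 23.5% of reads unique). The median of the 11 was 0.00, and Foxp3, the master regulator of the lineage, had 4 reads and 3. Folr4, a folate receptor family gene of the same list, was at 31.3 and 49.9 CPM, 56.5 and 61.4 in the CX4945 pair.

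Zfp53, a zinc finger gene on chromosome 17 (bases 21628220 to 21646629, build mm9), had CPM values of 52.9, 154, 41.1 and 39.3. The DMAT library was the highest of the 4, 2.9-fold over its control (2.39 to 3.53). Its intron reads were higher as well, at 62 and 140, a ratio of 2.46 (1.81 to 3.38), while its junction reads, at 16 and 25, gave an interval that held 1 (0.875 to 3.42). Of the 9 other genes compared within 400 kb, most of them zinc finger genes, 0 were 2-fold apart. The nearest ones, Zfp51 and Zfp52, had log2 ratios of 0.51 and 0.30.

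Some genes with many reads were higher with DMAT than in either control. Aff3, a transcription elongation factor, was at 55.5, 120, 54.3 and 74.7 CPM. Arhgef3, a guanine nucleotide exchange factor for small GTPases, was at 97.6, 181, 115 and 135. Rnf157, a ubiquitin ligase, was at 25.6, 67.2, 21.0 and 34.9, and Cblb, a ubiquitin ligase that restrains T cell activation, at 84.6, 144, 76.2 and 78.1 CPM. Aff3 and Arhgef3 were higher in their introns too, with ratios of 2.89 (1.76 to 4.9) and 2.91 (1.3 to 7.11), and Rnf157 with 1.46 (1.06 to 2.02). Cblb was chosen after its values were seen. Ephb6, a kinase-dead ephrin receptor, had 21 control reads and 55 with DMAT, with 27 and 31 in the CX4945 pair. Ly6e, a GPI-anchored protein of the Ly6 family, was at 95.4 and 192 CPM in the DMAT pair and at 167 and 166 in the CX4945 pair, so the control for DMAT was the low library and the log2 ratio against the second control was 0.20. The ranked higher genes with the fewest reads were A930038C07Rik, the meiotic recombination gene Mnd1 and the Rab GTPase-activating gene Tbc1d30, with 9, 10 and 10 control reads and 32, 33 and 31 with DMAT.

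Single members of other lists also passed 2-fold. Fosl1, an AP-1 subunit, had 49, 18, 58 and 35 reads (38.8% unique), Psmb10, an immunoproteasome subunit, 63, 26, 91 and 60 (37.1% unique), and Mt2, a metallothionein, 22, 6, 15 and 9. On the higher side were Tet1, a methylcytosine dioxygenase, with 11, 25, 6 and 13 reads and Acvr2a, an activin receptor, with 7, 21, 15 and 12.

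Lars2, the leucyl-tRNA synthetase of mitochondria, and AY036118, a transcript on chromosome 17 with 0 exon-exon reads, were higher with both inhibitors. Lars2 was at 85.7, 249, 131 and 449 CPM, and AY036118 at 27.7, 77.4, 29.8 and 91.4. In Lars2 the DMAT excess lay in exon reads that cross no junction, 216 in the control and 609 with DMAT, while the junction reads were 22 and 26 (ratio 1.29, 0.702 to 2.39) and the intron reads 35 and 33. The intervals of its junction and intron ratios thus held 1, and 66.1% of its exon reads were unique. Of 37 aminoacyl-tRNA synthetase genes, Lars2 alone was past 1.5-fold, against 4.56% of all genes higher and 4.84% lower. The median of the list was -0.01.

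Transcripts of the kinase targets themselves were near their control levels. The 3 CK2 subunit genes compared, Csnk2a1, Csnk2a2 and Csnk2b, had ratios of 0.921 (0.836 to 1.01), 1.06 (0.868 to 1.29) and 1.00 (0.867 to 1.16). DMAT is also known to bind kinases of the PIM, DYRK and HIPK families. Of 10 genes of these families, 0 were past 1.5-fold, against 4.56% of all genes higher and 4.84% lower. Pim1, the lowest of them, was at 218 and 157 CPM with DMAT (ratio 0.722, 0.635 to 0.821) and at 221 and 220 with CX4945.

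Genes of the signalling pathways that CK2 touches showed differences in single members and small shifts of whole lists. Of 26 STAT and feedback genes, Stat4 was 2-fold lower and 0 were 2-fold higher, against 1.27% and 1.09% of all genes. Jak2, a kinase of cytokine receptors, was at 955, 689, 819 and 759 CPM (ratio 0.722, 0.679 to 0.767), and Stat5a, which relays IL-2 signals, at 435, 311, 548 and 431. Socs2, a feedback inhibitor, had 15, 28, 15 and 19 reads. Of 23 NF-kB genes 18 lay below 0, where 49.2% of all genes lay, with a median of -0.19 and 0 past 2-fold. Nfkb1 was at 336, 265, 385 and 423 CPM and Tnfaip3, a feedback inhibitor of the pathway, was at 201, 142, 221 and 146, a ratio of 0.707 (0.617 to 0.808).

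Feedback genes of the MAP kinase pathway were split. Of 19 genes, 2 were 2-fold lower (Etv5 and Ier3), 5 were 1.5-fold lower and 1 was 1.5-fold higher. Those counts stand beside 1.27%, 4.84% and 4.56% of all genes. Dusp6, the phosphatase that switches off ERK and a transcript that follows ERK activity, was at 86.4, 42.8, 58.2 and 42.7 CPM, with a ratio of 0.495 (0.391 to 0.624). Its DMAT level was close to that with CX4945, and the second control lay between. Etv5, an ERK-induced factor, had 23 reads and 6, with 8 in the second control. Among 29 genes of the PI3K, AKT and FOXO axis 0 were counted as 2-fold apart. The catalytic subunit Pik3cd was higher, at 183, 287, 221 and 287 CPM, and its relative Pik3cg lower, at 18, 8.64, 19.7 and 21.1. Dusp6 and Pik3cg, with log2 ratios just short of 2-fold once the prior count is added, are not in these counts. Hdac7, a deacetylase that is a substrate of kinases downstream of the antigen receptor, was at 287, 459, 297 and 411 CPM.

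S100 and galectin genes, many of them induced in effector and memory T cells, were lower in part. Of 15 genes, 2 were 2-fold lower (Lgals1 and Lgals3), 5 were 1.5-fold lower and 1 was 1.5-fold higher. The shares of all genes were 1.27%, 4.84% and 4.56%. Lgals3 is also counted in the Th17 list. Lgals1, galectin-1, was at 42.1 CPM in the control and 18.1 with DMAT, a ratio of 0.429 (0.298 to 0.608), against 43.8 and 48.6 in the CX4945 pair. Ahnak, a large scaffold protein, was at 45.7, 22.8, 53 and 45.7 CPM. In both genes the DMAT library stood below the other 3. S100a6 was at 16.9, 8.64, 21.0 and 9.82 CPM, low with both inhibitors.

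Timp1, an inhibitor of metalloproteinases, had 106 control reads and 5 with DMAT, and 56 and 27 in the CX4945 pair, with 32.4% of its reads unique. Plek, a substrate of protein kinase C, was at 88.2, 33.4, 41.1 and 31.9 CPM, so the control for DMAT was the library apart, and against the second control the log2 ratio was -0.30 in place of -1.38. Frmd4b, a scaffold protein of the plasma membrane, was at 56.2, 14.5, 53 and 28 CPM, with both inhibitor libraries below both controls. Lum, which encodes the matrix proteoglycan lumican, had 39, 6, 14 and 1 reads, and Tnfaip8l2, an inhibitor of lymphocyte activation, had 48, 12, 31 and 51. Marcks, an actin-binding substrate of protein kinase C, had 44, 19, 28 and 9 reads, so that Lum and Marcks were low with both inhibitors and Tnfaip8l2 was not. Itga3, an integrin subunit chosen after its values were seen, was at 121, 57.7, 182 and 144 CPM (ratio 0.479, 0.391 to 0.583).

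Cell cycle genes were split by phase. Of 40 genes of mitosis and the spindle, 39 lay below 0 and 8 were 1.5-fold lower, against 49.2% and 4.84% of all genes. Their median log2 ratio was -0.32, and 0 were past 2-fold. Anln, a scaffold of the cleavage furrow, was at 56.5, 29.1, 36.8 and 31.9 CPM (ratio 0.514, 0.384 to 0.682), Hmmr, a spindle protein, at 148, 88.4, 89.7 and 66.3, and Mki67, the proliferation marker, at 908, 737, 720 and 682. In all 3 the control for DMAT was highest, and the control libraries differed in the list by the same median of -0.32. Of 45 DNA replication genes, 0 were past 1.5-fold, and their median was 0.08. Mcm3, a subunit of the replicative helicase, was at 699 and 700 CPM, and Pcna, the polymerase clamp, at 1048 and 1056.

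Metabolic genes differed little within the pair. The cholesterol and fatty acid synthesis genes had a median of 0.24, with 28 of 30 above 0, against 50.8% of all genes. Of the 30, 1 was 1.5-fold higher, Nsdhl, against 4.56% of all genes. Sqle, squalene epoxidase, was at 127 and 178 CPM, a ratio of 1.4 (1.21 to 1.61), and Cyp51, a demethylase of the sterol pathway, at 344 and 416. In the CX4945 pair the same genes were at 105 and 86.9 and at 228 and 155 CPM, and the list's median was -0.32. Between the controls the list differed by -0.40, and Scd2, a fatty acid desaturase, was at 899 CPM in one control and 338 in the other. The sterol genes thus lay above the control with DMAT and below it with CX4945, with controls that started at different levels. The difference between the inhibitors was not tested, since dose, experiment and compound differ together.

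ATF4 target genes had 3 members 2-fold lower (Chac1, Trib3 and Cth), 1 higher (Cbs, 6 and 15 reads), 6 of 23 1.5-fold lower and a median of -0.29. Those counts stand beside 1.27%, 1.09% and 4.84% of all genes. The control libraries differed by -0.36 in this list, and the control for DMAT was the high one. Atf4 itself was at 528 CPM in that control and at 366, 363 and 358 in the other libraries. Asns, asparagine synthetase, was at 51.9 CPM there, 33.8 with DMAT and 14 and 14.7 in the CX4945 pair. Glycolysis genes had 0 of 23 past 1.5-fold and a median of -0.10, with Hk2, hexokinase, at 235, 179, 257 and 160 CPM. Of 42 nuclear genes of oxidative phosphorylation and 39 genes of MYC and ribosome biogenesis, 0 were 2-fold apart, and Myc was at 407, 470, 474 and 415 CPM. Of 23 heat shock genes and 22 genes of the unfolded protein response, 0 were 2-fold apart.

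**Figure D4:**
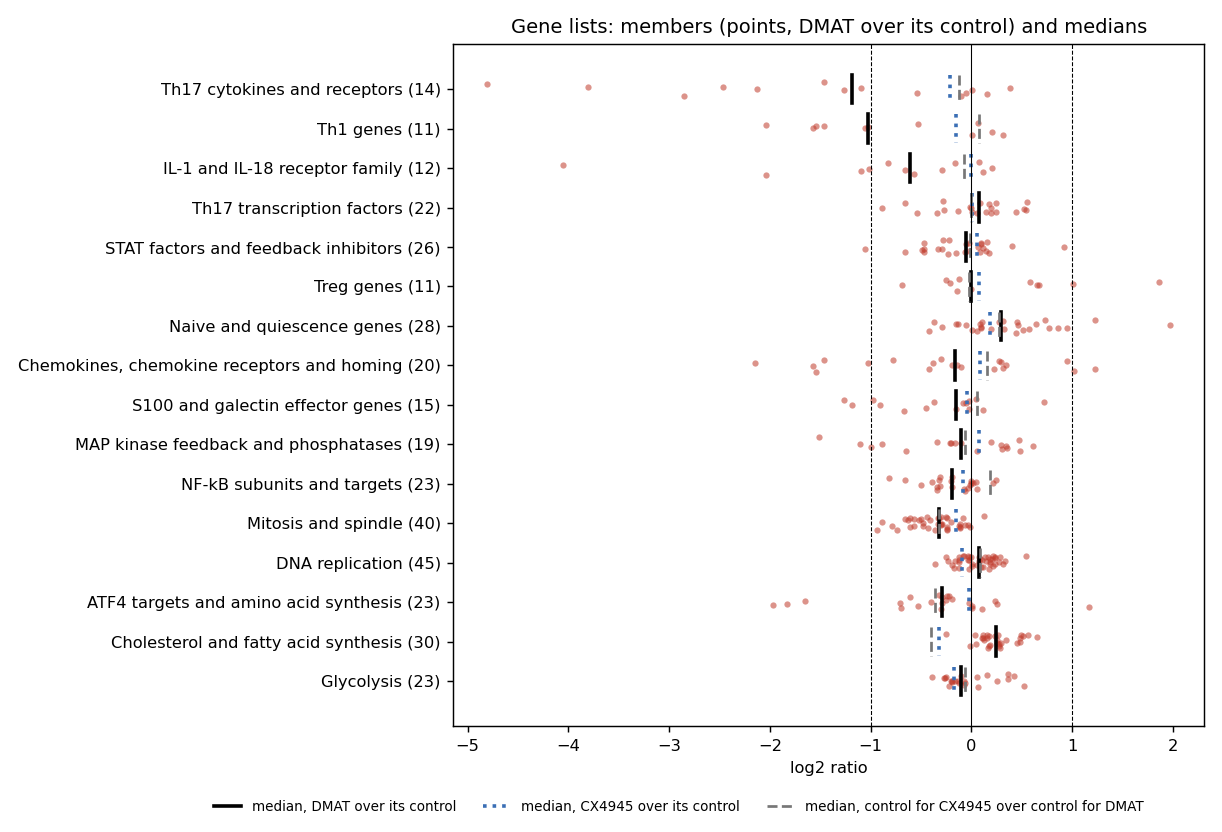
Log2 ratio of each gene compared (points) in 16 gene lists, with the number of genes in brackets, for DMAT over its control. Solid bars mark the median with DMAT, dotted bars that with CX4945 and dashed bars that between the control libraries. The Th17 cytokine, Th1 and IL-1 family lists reach lowest with DMAT, and in the mitosis, ATF4 and naive lists the median between the controls is near that with DMAT.

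Interferon-induced genes included 3 of 19 that were 2-fold lower and 0 that were higher, against 1.27% and 1.09% of all genes. Ifih1 was at 20.2, 4.71, 15.8 and 10.8 CPM and Zbp1, a sensor of nucleic acids, at 21.6, 9.03, 17.5 and 20.6. Ifi47, a GTPase induced by interferon, had 31, 10, 20 and 23 reads, with 7.32% unique in the DMAT pair. The median of the list was -0.10, and 4 of the 19 were 1.5-fold lower, against 4.84% of all genes.

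The CX4945 pair shares no library with the DMAT pair, so it can be read as a separate measurement with another compound, at another dose and in another experiment. Both pairs compared 9262 genes in common. Among these, 100 were 2-fold lower with DMAT, and 28 of the 100 passed 1.5-fold lower with CX4945, against 4.12% of the 9262 (4.21% of all 9358 genes of the CX4945 pair). Their median log2 ratio with CX4945 was -0.28, against 0.00 for all. Of the 64 genes 2-fold higher with DMAT, 12 passed 1.5-fold higher with CX4945, against 3.8% of the 9262 (4.01% of the 9358), and their median was 0.13. At 2-fold, 14 of the 100 lower and 4 of the 64 higher genes passed with CX4945, where the background was 0.919% lower and 0.887% higher among the 9358 genes of that pair. These backgrounds pool all read depths. In the DMAT pair, 70 of the 105 higher and 66 of the 123 lower genes had 20 to 49 reads. Of the 1218 genes with 20 to 49 reads in the CX4945 pair, 15.8% were 1.5-fold higher and 14.4% lower. At 2-fold, 54 of the 1218 were higher and 51 lower. The pooled shares are therefore low for genes with few reads, and a background of matched depth was not computed. Among those 2-fold lower with both are Il17f, Il22, Il23r, Il17a, Il1r1, Il1rn, Tigit and Il18rap. Tbx21, Lgals1 and Pdcd1lg2, low with DMAT, had CX4945 log2 ratios of 0.13, 0.15 and 0.11. Whether the inhibitors differ at these genes was not tested.

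How many genes pass 2-fold depends on how many reads they have. Among the 1154 genes with fewer than 50 reads in the DMAT pair, 11.8% were 2-fold apart. The share was 2.48% from 50 to under 200 reads and 0.310% from 200 to under 1000, and at 1000 or more it was 0.0861%, which is Il17f alone of 1161 genes. Between the controls the shares were 11.0%, 2.49%, 0.193% and 0.184%. Of the 228 genes 2-fold apart with DMAT, 136 had under 50 reads, and 66 had under 50% unique reads. Genes with 200 or more reads that passed 2-fold, such as Il17f, Il1r1, Plek, Lars2, Zfp53 and Aff3, rest on far more reads than the rest of the 228.

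**Figure D5:**
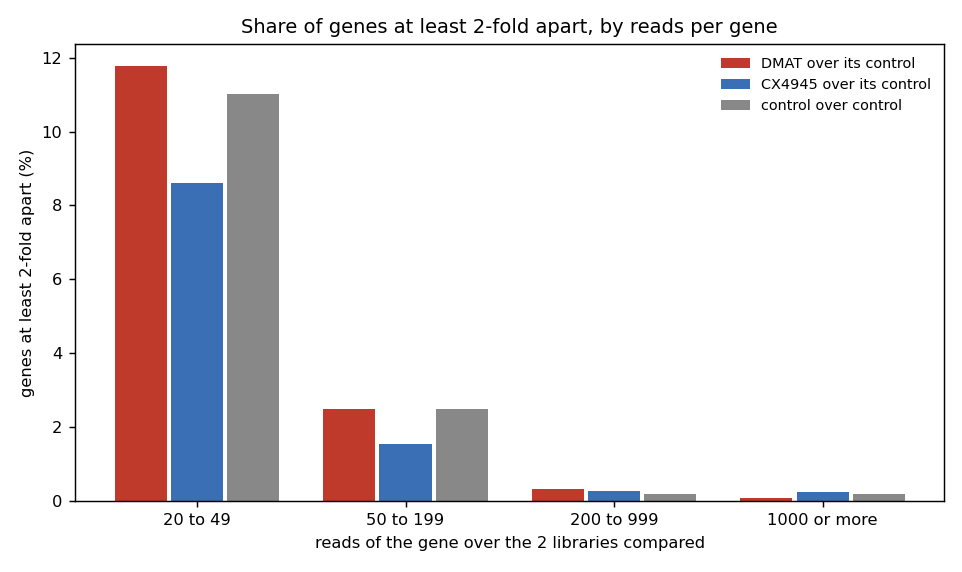
Share of genes at least 2-fold apart (bars, from 0) by the gene's reads over the 2 libraries compared, for DMAT over its control, CX4945 over its control and one control over the other. Under 50 reads the share is 11.8% with DMAT and 11.0% between the controls, and from 200 to under 1000 reads it is 0.310% and 0.193%.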

How the data were processed

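RNA-seq libraries were made from total RNA with a TruSeq kit and read on a MiSeq, per the labels' protocols. CASAVA 1.8.2 and build mm9 are named in the submitters' processing notes, and the aligner, annotation, counting rule and strand setting are not given in the sources used here. The deposited values are raw read counts per gene (total exon, unique exon, exon-exon and total gene reads), and intron reads were computed as total gene reads less exon reads. Overlapping and antisense genes may therefore share reads, and genes with few unique reads are uncertain. Samples were grouped by their titles, with 1 library per arm, so p-values could not be computed across samples and the tests are counting intervals (95% exact conditional). Where a count was 0, the floor was 3 counts.

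CPM from total exon reads used library totals scaled by TMM (edgeR 4.0.16 in R 4.3.3). Log2 ratios added a prior count of 2, and genes needed 20 reads over the 2 libraries. The ratios and their intervals come from CPM without that prior count. The code was tested on simulated data. Python 3.11.15, numpy 2.4.6, pandas 2.3.3, scipy 1.17.1 and matplotlib 3.10.9 were used. Named genes were the 15 lower and 15 higher with at least 40 reads, at least 50% unique, whose interval bound nearest to 1 lay farthest from it, the 2-fold and defining genes of the lists, up to 4 others per list with the most reads, and genes with a count of 0 in 1 library. Genes outside this rule are said to be so, and a few genes that it names are not reported here, though the counts include them. The genes, lists and rules were chosen with earlier results of these data known. Of 1088 list symbols, 1070 matched. Alternatives were unique and exon-exon reads, total-count and DESeq2 1.42.0 scaling, read minimums of 1, 50 and 100, prior counts of 0.5 and 5, and the second control or the mean of both as control. Promoters are RefSeq's (GRCm38.p6), and gene positions are in mm9.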

Additional observations from a re-analysis of the deposited data

Results flagged for a closer look

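Among genes compared in both pairs, 7 were at least 2-fold apart in opposite directions with DMAT and with CX4945, and this difference was not tested. Il1rap, the shared accessory chain of IL-1 family receptors, had a log2 ratio of -1.02 with DMAT and 1.07 with CX4945, from 20, 8, 14 and 28 reads. Lgals3, galectin-3, had -1.27 and 1.16, from 19, 6, 11 and 24 reads. Asf1a, a histone chaperone, had 1.06 and -1.03 with 35.9% of its reads unique. Gm10521 had -1.02 and 1.02. The other 3 had almost no unique reads: Gm5601 with 1.05 and -2.28 (1.59% unique), Tsix, the antisense partner of Xist, with -1.07 and 1.19 (1.92%), and Gm6644 with -1.03 and 1.29 (0%).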

How the results depend on the processing

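The counts of genes past a fold moved most with the read minimum. With a minimum of 1 read, 409 genes were 2-fold higher and 356 lower, and 1258 and 1113 passed 1.5-fold. With 50 reads the counts were 35 and 57 at 2-fold and 241 and 282 at 1.5-fold, and with 100 reads 18 and 23, and 135 and 168. A prior count of 5 left 65 genes 2-fold higher. With the second control as control, 161 genes were 2-fold higher, Trib3 was reversed with a log2 ratio of 1.24, while 50 of the 51 reported genes compared and 33 of 45 list medians kept their sign. The cause was not tested. With total-count or DESeq2 scaling, 58 of 58 reported genes kept their sign. With unique reads 56 of 56 did, and with exon-exon reads 21 of 21, but exon-exon reads moved 9 of the 21 outside their counting interval and kept the sign of 33 of 42 list medians (14 of the 42 moved by over 0.1). The second control moved 14 of the 51 genes and 23 of the 45 medians. No paired analysis was possible because each arm holds 1 library. The depth gives little precision under 50 reads, and 1 library per arm leaves the spread between cultures unmeasured.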

Other observations

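Reads of T cell receptor β variable segments (Trbv), a group chosen after its values were seen, were compared for 16 segments. Of these, 13 lay above 0 with DMAT and 2 were 2-fold higher, against 50.8% and 1.09% of all genes. Their median log2 ratio was 0.42, from 371 reads in the control and 453 with DMAT over all 16 segments. Summed over the segments, the libraries held 134 CPM in the control, 178 with DMAT, 134 in the second control and 145 with CX4945. Of 4 α variable segments, 2 lay above 0.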
